A study of Mus musculus with 6 samples.

Results

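The proteasome genes described here are the 48 counted symbols that consist of Psm, a letter from a to g and a number, out of 24421 symbols in all. They were chosen by name alone, and 5 of them (Psmb8, Psmb9, Psmb10, Psme1 and Psme2) are set apart as interferon-induced, which leaves 43 others, called constitutive here. RNA was sequenced from flow-sorted endothelial cells of B16F0 tumours, a mouse melanoma line that was grown under the skin of C57BL/6 mice for 17 days. All mice carried the tumour and were injected every 3 days at 50 mg/kg, 3 libraries coming from mice given 15C4, an antibody that blocks the secreted glycoprotein LRG1, and 3 from mice given IgG as the control. The comparison asks how 15C4 alters expression in the tumour endothelium. The libraries are called 15C4 1, 15C4 2, 15C4 3, IgG 1, IgG 2 and IgG 3. The labels give neither the age of the mice nor whether each library stands for 1 animal or a pool, so p-values speak for the spread between libraries, part of which may be technical.

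The proteasome is the barrel-shaped protease that degrades proteins tagged with ubiquitin. Rings of alpha subunits form the gate and rings of beta subunits hold the proteolytic sites, while a regulatory cap with an ATPase base and a lid binds, unfolds and feeds in the tagged protein. Interferon-gamma replaces the catalytic subunits Psmb6, Psmb7 and Psmb5 by Psmb9, Psmb10 and Psmb8 to make the immunoproteasome, and induces the cap subunits Psme1 and Psme2, which form the PA28 activator. The immunoproteasome is best known for generating peptides that major histocompatibility complex (MHC) class I molecules present, and endothelial cells are among the non-immune cells that respond to interferon-gamma.

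Constitutive and induced subunits are known to answer to different transcription factors, so promoter sequence is shown for the catalytic and PA28 genes on which the ratios rest and in which a motif was found. RefSeq promoter windows (GRCm38.p6, 250 bases before to 50 after the start) were found for 40 of the 48 genes, 43 windows in all. Each was searched on both strands for 4 motifs. They were the core of the interferon-stimulated response element (GAAA, then 2 bases of any kind, then GAAA), the gamma-activated site (TTCNNNGAA), the core of the antioxidant response element, which NFE2L1 and NFE2L2 bind (TGACNNNGC), and the NF-Y box (CCAAT). A shared stretch could count for more than 1 motif. Capitals below mark the motif found, each sequence is written 5′ to 3′ on the strand of its gene, and a match is a description of letters, not a bound site.
Psmb8 (chr17:34198075-34198194, plus strand, 120 bases before the start, gamma-activated site): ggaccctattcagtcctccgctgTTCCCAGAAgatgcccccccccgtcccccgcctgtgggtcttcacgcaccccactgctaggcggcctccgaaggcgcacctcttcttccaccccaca
Psme1 (chr14:55578434-55578513, plus strand, 60 bases before to 20 after the start, interferon response element core on the other strand): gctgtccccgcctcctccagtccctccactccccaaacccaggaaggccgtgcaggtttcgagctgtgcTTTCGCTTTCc
Psmb9 (chr17:34187331-34187555, minus strand, 225 bases before the start, CCAAT box on the other strand): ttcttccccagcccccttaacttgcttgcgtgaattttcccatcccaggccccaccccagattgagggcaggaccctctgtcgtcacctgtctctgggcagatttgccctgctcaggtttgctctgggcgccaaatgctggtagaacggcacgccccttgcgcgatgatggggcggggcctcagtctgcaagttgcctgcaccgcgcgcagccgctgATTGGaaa
Psmb5 (chr14:54617996-54618075, minus strand, 80 bases before the start, antioxidant response core): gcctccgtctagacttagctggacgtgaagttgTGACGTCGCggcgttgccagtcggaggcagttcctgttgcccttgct
Psmb6 (chr11:70525277-70525356, plus strand, 80 bases before the start, antioxidant response core): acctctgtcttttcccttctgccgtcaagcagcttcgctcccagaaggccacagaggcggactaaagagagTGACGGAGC
The Psmb9 stretch is the whole interval between its start and that of Tap1 in the RefSeq windows. Tap1, the peptide transporter gene, is transcribed in the opposite direction from a start 226 bases away. The GENCODE annotation differs, since its Psmb9 gene reaches 34187764, past the RefSeq Tap1 start at 34187556.

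The interferon response element core was in 1 of the 6 windows of the interferon-induced genes (Psme1) and in 4 of the 37 windows of the others (Psmb3, Psmd4, Psmd9 and Psmg4), against 3.44% of all 32851 windows of this length. The gamma-activated site was in 1 of 6 (Psmb8) and 2 of 37 (Psmd2 and Psmg1), against 8.30% of all windows. The antioxidant response core was in 0 of 6 and in 6 of 37 windows (Psmb5, Psmb6, Psmc6, Psmd9, Psmd12 and Psme4), against 12.4%, and CCAAT was in 1 of 6 and 13 of 37, against 37.4%. These are counts of letters in short windows only.

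Total counts ran from 5175600 to 19572202 per library. The labelled cell type was checked by markers in CPM, the counts of a gene per 1000000 counts of its library. Together the 15 pan-endothelial markers came to 1323, 2802 and 1435 CPM in 15C4 1, 2 and 3 and to 1639, 2272 and 161 CPM in IgG 1, 2 and 3, with Cldn5 at 0 in 15C4 3 and Erg at 0 in IgG 3. The 10 melanocyte genes, all counted in every library, summed to between 23478 and 28663 CPM, above the endothelial sum in all 6 libraries. The part of melanocyte-lineage cells in the proteasome counts was not tested. IgG 3 stood apart by its low endothelial sum, IgG 2 by a lymphatic endothelial sum of 1094 CPM against 11.6 to 63.8 CPM in the others, and 15C4 3 by being the lowest library for 37.1% of all tested genes. Where a median by role turned without 1 of these 3 libraries, its value without that library is given.

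The proteasome genes were abundant and, as a group, took similar shares of the counts in both groups of libraries. Their summed level was 7215, 7831 and 8909 CPM in 15C4 1, 2 and 3 and 8078, 5893 and 9584 CPM in IgG 1, 2 and 3. That is 7985 ± 858 CPM against 7852 ± 1856 CPM (SD, n = 3 each), between 0.589% and 0.958% of all counts. The 2 group means lay closer together than the libraries within either group. In bulk samples, fewer cells of a type and less RNA per cell cannot be told apart.

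Of the 48 genes, 46 had enough counts to be tested, and the other two are tissue-restricted. Psma8, the testis-specific alpha subunit, had 7 counts in IgG 1, 1 in 15C4 3 and 0 in the other 4 libraries. Psmb11, the catalytic subunit of the thymic cortex, had 16 counts in 15C4 3 (2.503 CPM, 95% exact Clopper-Pearson interval 1.43 to 4.06) and 0 elsewhere. By the same exact interval, a count of 0 allows a level of up to 0.713 CPM in IgG 1, the shallowest library, and 0.188 CPM in 15C4 2, the deepest. Such limits and intervals hold for counting error alone, because amplified reads without molecular identifiers can be copies of 1 molecule.

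Levels of different genes were compared per kb of the principal transcript, as the mean of all 6 libraries. The alpha and beta ring subunits led, with Psma1 at 423 ± 113 CPM per kb (SD, n = 6), Psma7 at 382 ± 103, Psmb2 at 355 ± 83.2 and Psmb6 at 270 ± 105 CPM per kb. Each differed from the next in this order by less than the larger of their SDs. Of the interferon-induced genes, Psme2 and Psme1 were in the upper part of the order with 192 ± 61.1 and 170 ± 18.9 CPM per kb, while Psmb10, Psmb9 and Psmb8 stood at 68.5 ± 30.4, 68.0 ± 22.0 and 38.4 ± 16.9 CPM per kb. Psmf1, which encodes the inhibitor PI31, was at 13.7 CPM per kb, and the base assembly chaperones Psmd5 and Psmd9 were the lowest of the tested genes at 9.95 and 8.62 CPM per kb. With the union of all exons as the length, a choice added after the data were seen, Psmb2 ranked 1 and Psma1 ranked 4. The order changed elsewhere too. The assembly chaperone Psmg4 ranked 3, Psmb6 ranked 7, Psma7 ranked 8, Psme2 ranked 11 and Psme1 ranked 19.

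**Figure D1:**
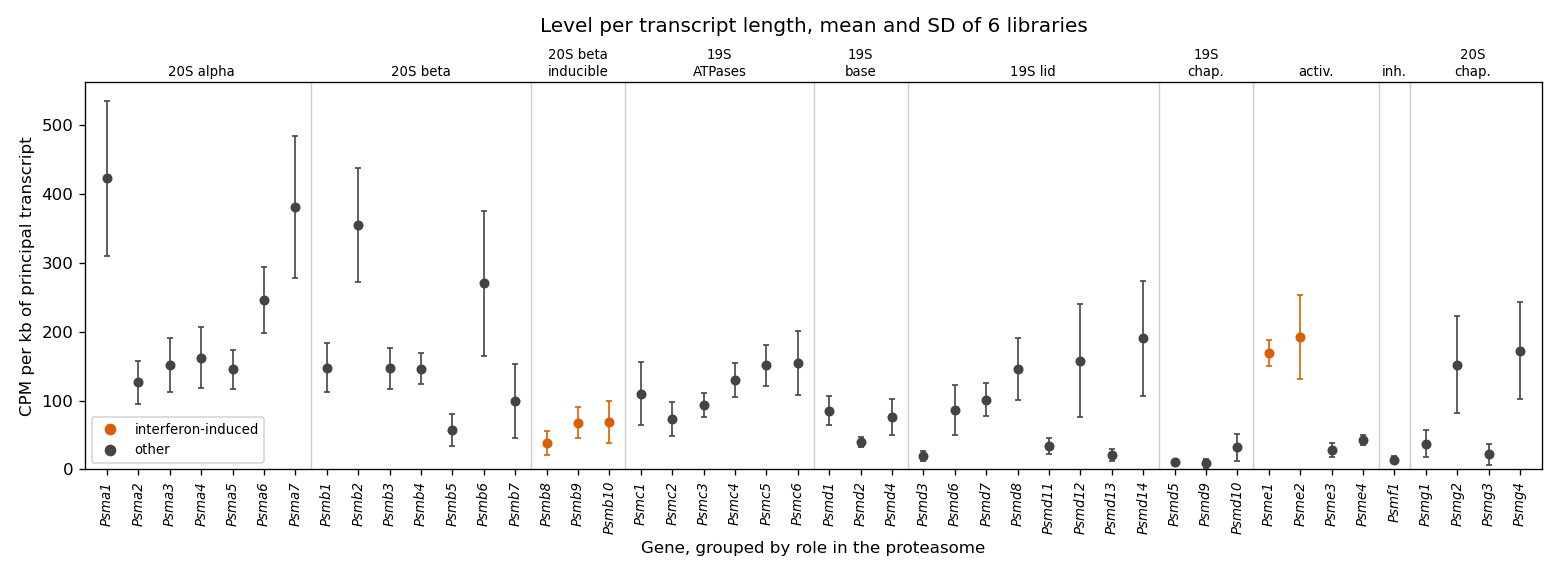
Mean CPM per kb of principal transcript over the 6 libraries for the 46 tested genes, grouped by role; bars are the SD of 6 libraries. Psma1, Psma7 and Psmb2 lie above 350, and the induced catalytic subunits Psmb8, Psmb9 and Psmb10 lie below 70, under Psme1 and Psme2.

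From library to library, the median spread of proteasome genes was below that of all tested genes and near that of genes of middle abundance. The coefficient of variation (SD over mean) of CPM across the 6 libraries had a median of 32.7% for the 46 genes. It was 55.4% for all 11144 tested genes. For the 1734 tested genes whose mean CPM lay in the middle range of the members (90.3 to 248 CPM), it was 36.2%. The 46 genes also include some above and some below that range, so these medians are not matched for abundance. Psme1 had the lowest value of the set at 11.1%, followed by Psmb4, a structural beta subunit, at 15.2%. The highest values belonged to Psmd9 at 75.4%, Psmg3 at 69.5% and Psmd10 at 60.3%, all 3 assembly chaperones rather than subunits. These 3 genes were also less abundant than the middle range above. Their mean CPM in 15C4 and IgG was 12.3 and 32.5 (Psmd9), 15.4 and 23.5 (Psmg3), and 67.8 and 23.4 (Psmd10). The part of abundance in their spread was not tested. By role, the medians ran from 23.8% for the constitutive beta subunits, 25.1% for the ATPases and 26.1% for the alpha subunits to 49.2% for the Psmg chaperones and 60.3% for the base chaperones.

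**Figure D2:**
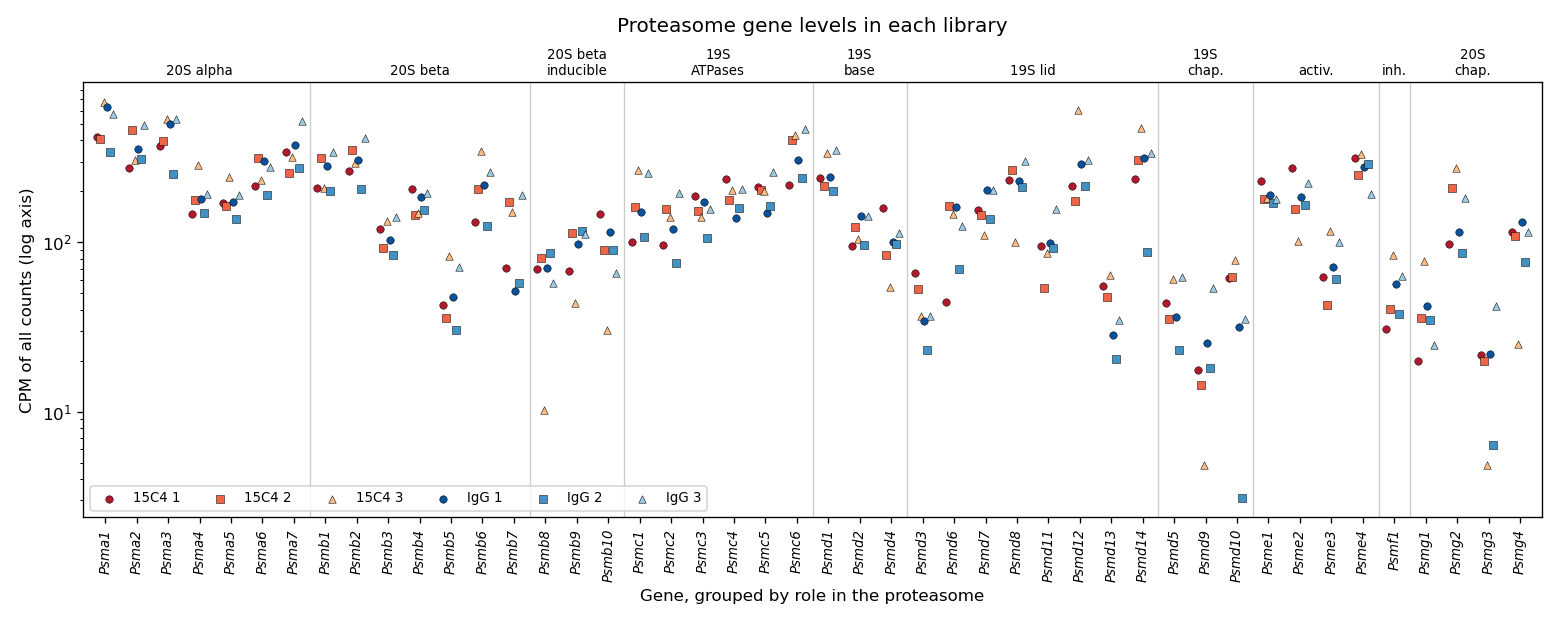
CPM of all counts on a log axis for the 46 tested proteasome genes in each of the 6 libraries, grouped by role (19S chap. and 20S chap. are assembly chaperones, activ. activators, inh. inhibitor). Psmb8 in 15C4 3 (10.2 CPM) and Psmd10 in IgG 2 (3.11 CPM) lie well below their other 5 libraries.

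The proteasome genes did not pass the threshold between the treatments. With the quasi-likelihood test of edgeR on the whole table, 0 of 46 genes had an adjusted p under 0.05, and 0% of all 11144 tested genes did. At an unadjusted p under 0.05, edgeR called 0 of the 46 and 2.58% of all tested genes, with 0.0673 (Psmd13) as the smallest p of the set. DESeq2 called 0 of the 46 and 0.206% of all genes after adjustment. Without adjustment it called 2 of the 46, Psmd13 and Psmd10, and 4.08% of all genes. The adjusted p from edgeR was 1.00 for each of the 46 after rounding. The SE of a log2 fold change ran from 0.30 (Psme1) to 0.92 (Psmg3), and differences of the size seen here were not called by this fit.

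Fitted log2 fold changes (15C4 over IgG) were above 0 for 31 of the 46 genes, against 50.7% of all tested genes, with a median of 0.12 against 0.010 for all tested genes. The split depends on the scaling, with 24 of 46 above 0 under upper quartile factors and 23 of 46 under library size alone. The sign of the median also rests on single libraries, since it was -0.021 without 15C4 3 and -0.083 without IgG 2. Above 0 were 29 of the 41 constitutive genes and 2 of the 5 interferon-induced ones. IgG 2 was the lowest library for 18 of the 41 constitutive genes and the highest for 0. Of all tested genes, it was lowest for 10.7% and highest for 18.2%.

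**Figure D3:**
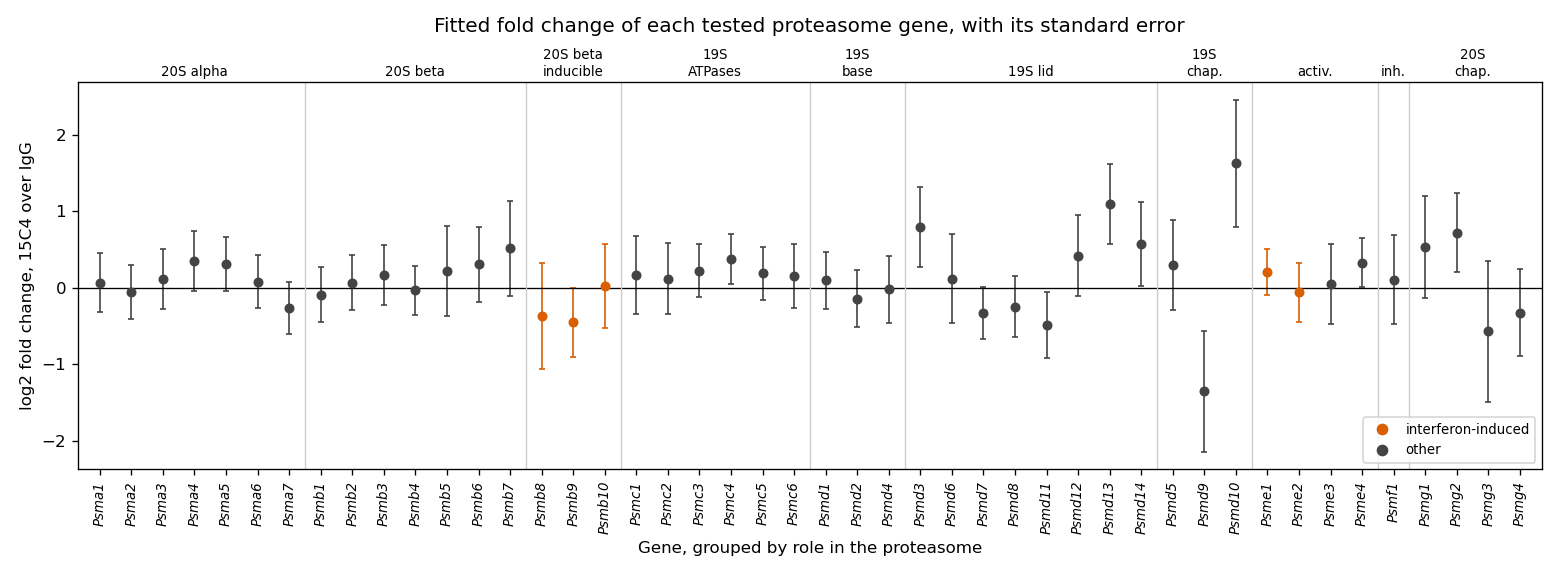
Fitted log2 fold change (15C4 over IgG, edgeR) of the 46 tested proteasome genes with its standard error, interferon-induced genes in orange. The largest values belong to Psmd10 (1.63), Psmd13 (1.10) and Psmd9 (-1.36), and none passed the test.

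The alpha ring, which gates the barrel, had a median log2 fold change of 0.081, with 5 of its 7 tested genes above 0 (3 of 7 with library size alone) and 0 passing. Its direction rested on single libraries, since 2 of the 7 were above 0 without 15C4 3 (median -0.051) and 2 of the 7 without IgG 2 (median -0.16). Psma4 stood at 148, 178 and 287 CPM in 15C4 1, 2 and 3 and at 179, 149 and 192 CPM in IgG 1, 2 and 3 (log2 fold change 0.36, SE 0.39). Psma7 stood at 344, 258 and 321 CPM with 15C4 and 375, 275 and 519 CPM with IgG (-0.26, SE 0.34). Both sets of values overlapped between the groups, and each sign turned without 1 library, to -0.051 for Psma4 without 15C4 3 and 0.037 for Psma7 without IgG 3.

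Of the constitutive beta subunits, 5 of 7 were above 0, with a median of 0.17. Without 15C4 3 this fell to 2 of 7 (median -0.022), and without IgG 2 also to 2 of 7 (median -0.044). Psmb5, which carries the chymotrypsin-like site, was at 42.6, 35.7 and 83.2 CPM in 15C4 1, 2 and 3 and at 47.7, 30.3 and 71.6 CPM in IgG 1, 2 and 3. Psmb6, with the caspase-like site, was at 132, 207 and 349 CPM against 219.7, 124 and 262 CPM in the same order. Psmb7, with the trypsin-like site, was at 70.8, 173 and 151 CPM against 51.4, 57.8 and 189 CPM. Each was higher in 15C4 3 and IgG 3 than in IgG 2, and the groups overlapped for all 3 genes. Their log2 fold changes were 0.22 (SE 0.59), 0.31 (SE 0.49) and 0.52 (SE 0.63). Leaving out any 1 library gave log2 fold changes for Psmb7 from 0.20 without IgG 1 to 1.42 without IgG 3. Psmb1, a structural beta subunit, had 209, 313 and 209 CPM against 284, 201 and 344 CPM (-0.088, SE 0.36).

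The induced catalytic subunits stood out in 1 library rather than in 1 group. Psmb8, the induced counterpart of Psmb5, was at 69.4, 80.9 and 10.2 CPM in 15C4 1, 2 and 3 and at 70.5, 86.4 and 57.8 CPM in IgG 1, 2 and 3. The value in 15C4 3 comes from 65 counts, with a 95% exact interval of 7.85 to 12.96 CPM, and lay 7.18-fold below the mean of the other 5 libraries. Psmb10, the counterpart of Psmb7, was at 147, 90.3 and 30.5 CPM against 115, 90.03 and 66.2 CPM, 3.33-fold below that mean in 15C4 3. Psmb9, the counterpart of Psmb6, was at 68.1, 114 and 43.6 CPM against 98.0, 117 and 111 CPM, 2.33-fold below it. All 3 genes were lowest in 15C4 3, whereas Psmb5 and Psmb6 were highest there. The groups overlapped for each of the 3 genes, and their log2 fold changes were -0.36 (SE 0.69) for Psmb8, 0.023 (SE 0.55) for Psmb10 and -0.45 (SE 0.45) for Psmb9. Without 15C4 3, they were 0.12, 0.42 and -0.21.

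The PA28 genes, which open the gate of the barrel for peptide release, differed from each other. Psme2 was lowest in 15C4 3 like the induced catalytic subunits, with 274, 158 and 102 CPM in 15C4 1, 2 and 3 and 186, 167 and 223 CPM in IgG 1, 2 and 3, 1.98-fold below the mean of the others in 15C4 3. Psme1 was at 229, 180.5 and 182 CPM against 191, 170.1 and 179.7 CPM, and was only 1.04-fold below that mean in 15C4 3. Psme2 counts per Psme1 count were 1.19, 0.878 and 0.560 with 15C4 and 0.974, 0.982 and 1.24 with IgG. The 2 subunits join in 1 ring, and their ratio was lowest in 15C4 3. Log2 fold changes were 0.21 (SE 0.30) for Psme1 and -0.060 (SE 0.39) for Psme2. Psme2 has a near-identical counted copy, Psme2b, at 7.66 to 18.6 CPM, so reads could be split between them.

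The 2 activators outside the interferon-induced set were not low in 15C4 3. Psme3, the nuclear relative of PA28, was at 62.5, 42.6 and 117 CPM in 15C4 1, 2 and 3 and at 71.1, 61.1 and 100.3 CPM in IgG 1, 2 and 3 (log2 fold change 0.051, SE 0.53). Psme4, the large nuclear activator PA200, was at 316, 249 and 331 CPM against 280, 291 and 193 CPM (0.33, SE 0.32). Both were highest in 15C4 3, the library in which Psme2 was lowest, and neither separated the groups. The inhibitor gene Psmf1 was at 30.6, 40.6 and 84.3 CPM against 57.0, 37.8 and 63.2 CPM, also highest in 15C4 3 (0.11, SE 0.59). The directions of Psme3 and Psmf1 turned with the scaling, to -0.068 and -0.025 with library size alone. Psmf1, the only gene of its role, was at -0.53 without 15C4 3 and -0.095 without IgG 2.

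Taken as a set, the 5 interferon-induced genes summed to 788, 624 and 368 CPM in 15C4 1, 2 and 3 and to 660, 631 and 639 CPM in IgG 1, 2 and 3. The group means were 593 ± 211 and 643 ± 15.1 CPM (SD, n = 3 each). The 15C4 libraries held both the highest and the lowest sum, while the IgG libraries lay close together. Their median log2 fold change was -0.060, and 0.18 without 15C4 3, when 4 of the 5 were above 0. Psmb8, Psmb9, Psmb10 and Psme2, 4 of the 5, were lowest in 15C4 3, beside 37.1% of all tested genes and 6 of the 41 constitutive proteasome genes. That library was highest for 16 of those 41, beside 18.6% of all tested genes.

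Psmb8, Psmb9 and Psmb10 take the places of Psmb5, Psmb6 and Psmb7 in the particle, and the ratio of their counts within a library does not depend on its depth. Counts of the 3 induced over the 3 constitutive subunits gave 1.16, 0.686 and 0.145 in 15C4 1, 2 and 3 and 0.888, 1.38 and 0.450 in IgG 1, 2 and 3. The lowest (15C4 3, 95% exact interval 0.132 to 0.158) and the highest (IgG 2, 1.31 to 1.46) differed 9.56-fold. The group means were 0.662 ± 0.507 and 0.907 ± 0.466 (SD, n = 3 each), a difference smaller than either SD. The mean of 15C4 minus that of IgG was -0.24. It was 0.015 without 15C4 3, -0.0067 without IgG 2, -0.49 without 15C4 1 and -0.47 without IgG 3. For 3 libraries against 3 the smallest two-sided exact permutation p is 0.1. The intervals of the 2 extreme libraries did not meet, while the groups overlapped.

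Each pair on its own gave the lowest ratio in 15C4 3. Psmb8 over Psmb5 was 1.63, 2.26 and 0.122 in 15C4 1, 2 and 3 and 1.48, 2.85 and 0.807 in IgG 1, 2 and 3. Psmb9 over Psmb6 was 0.514, 0.549 and 0.125 against 0.446, 0.942 and 0.425. Psmb10 over Psmb7 was 2.07, 0.523 and 0.202 against 2.23, 1.56 and 0.350. IgG 3 was the lowest of the IgG libraries for all 3 pairs, and IgG 2 the highest for the first and second. Per kb of transcript, the first pair spanned 0.0675 to 1.58, the second 0.0738 to 0.556 and the third 0.179 to 1.97. On that scale, Psmb9 stayed below Psmb6 in all 6 libraries.

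**Figure D4:**
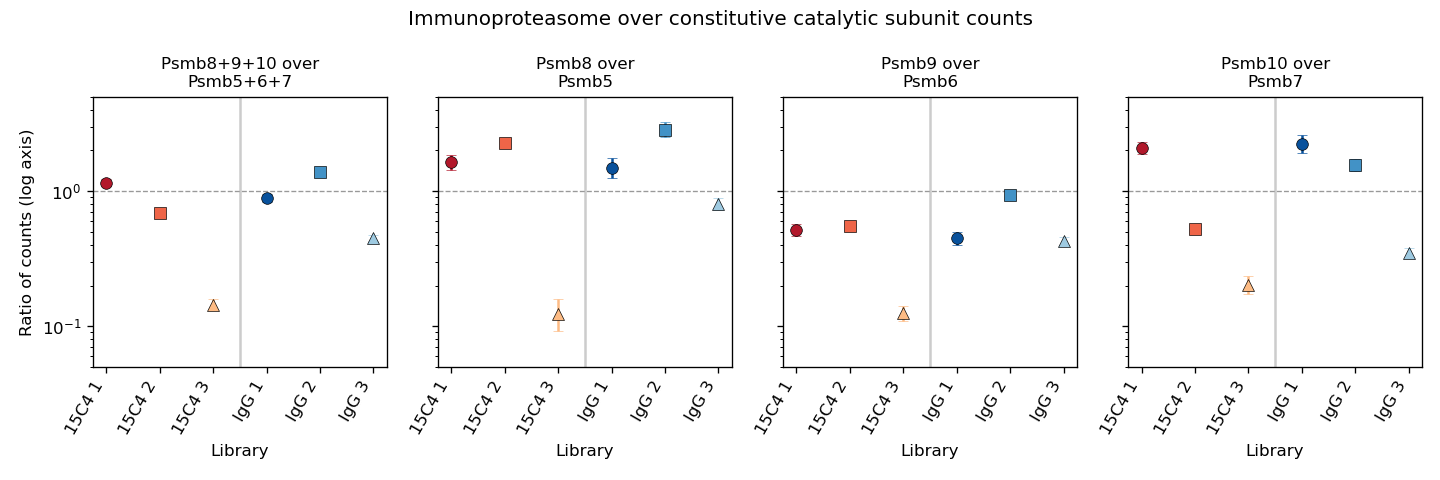
Ratio of counts of induced over constitutive catalytic subunits in each library on a log axis, summed over the 3 pairs and for each pair, with 95% exact intervals for counting error. 15C4 3 is lowest in every panel (0.145 for the sum), and the other 15C4 libraries lie among the IgG libraries.

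Outside 15C4 3, the sum of the induced subunits kept to a narrower range than the sum of the constitutive ones. Psmb8, Psmb9 and Psmb10 together were at 284, 285 and 84.3 CPM in 15C4 1, 2 and 3 and at 283, 294 and 235 CPM in IgG 1, 2 and 3. Psmb5, Psmb6 and Psmb7 together were at 246, 415 and 583 CPM against 319, 212 and 523 CPM. The low ratio of 15C4 3 thus had both a low numerator and the highest denominator, and that of IgG 3 mainly a high denominator.

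Genes that act on the immunoproteasome genes, or beside them, also differed between libraries. Irf1, the transcription factor that drives Psmb9 and Tap1 after interferon, was at 340, 121 and 6.57 CPM in 15C4 1, 2 and 3 and at 99.5, 142 and 73.8 CPM in IgG 1, 2 and 3. Nlrc5, the transactivator of MHC class I genes, was at 46.7, 96.1 and 8.45 CPM against 31.7, 117 and 35.0 CPM. Both were lowest in 15C4 3. Tap1, which shares its promoter interval with Psmb9, was at 168, 56.6 and 28.0 CPM against 67.2, 129 and 27.5 CPM. Tap1 was about as low in IgG 3 as in 15C4 3, although Psmb9 was at 111 CPM in IgG 3. In the GENCODE annotation, where Psmb9 extends past its RefSeq start, the exons of Psmb9 and Tap1 overlap on opposite strands over 212 bases. That is 5.79% of the Psmb9 exons, and the strand setting of the counting is not given in the sources used here.

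**Figure D5:**
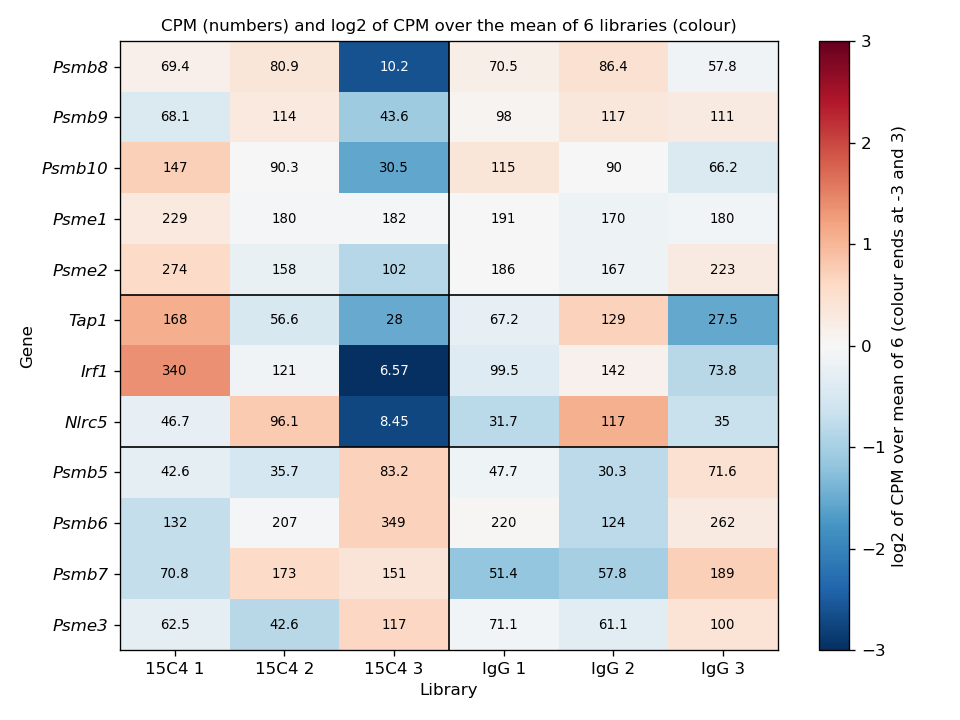
CPM (numbers) of the interferon-induced proteasome genes, of Tap1 and the regulators Irf1 and Nlrc5, and of the constitutive counterparts, by library; colour is log2 of CPM over the mean of the 6 libraries. The 15C4 3 column is low for Psmb8, Psmb10, Irf1, Nlrc5 and Tap1, near the mean for Psme1, and above it for Psmb5, Psmb6 and Psme3.

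Of the 16 listed interferon regulators, 15 were tested, 11 were above 0 and 4 below, and 0 passed, with a median log2 fold change of 0.12. The smallest p in each direction belonged to Stat2 (0.89, SE 0.56) and Jak1 (-0.36, SE 0.38). Ifng, the gene of interferon-gamma itself, was too low to test, with 16.2 CPM in IgG 1 and at most 0.519 CPM in the other 5 libraries. Of 15 genes of MHC class I and peptide loading, 12 were tested, 6 were above 0 and 6 below, and 0 passed (median 0.078). Tapbp, which tethers class I molecules to the transporter, was at 0.84 (SE 0.53), and H2-T23, a non-classical class I gene, was at -0.88 (SE 1.26) with 0.156 CPM in 15C4 3. H2-K1 and H2-D1, the classical class I genes, were at 737 and 185 CPM in 15C4 3, against 650 and 322 CPM in IgG 3 and higher values in the other 4 libraries.

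Other cell types also make these genes, and leukocyte markers differed between libraries. The T and NK cell list (12 of 13 genes counted) summed to 220, 5.21 and 21.7 CPM in 15C4 1, 2 and 3 and to 595, 15.1 and 9.08 CPM in IgG 1, 2 and 3. Cd4 was at 0 in all 6 libraries, and Cd3e at 0 in all but IgG 1. In 15C4 1 the sum was almost wholly Ccl5, a chemokine gene, at 214 CPM, with Cd3e, Cd3d, Cd8a, Cd4 and Prf1 at 0 and the common leukocyte genes at 7.38 CPM in all. In IgG 1, the largest values of the list were Gzma at 178 CPM, Ccl5 at 124 CPM and Nkg7 at 105 CPM. Gzma and Nkg7, granule genes of cytotoxic cells, were at 1.31 and 1.90 CPM in 15C4 1. The 5 common leukocyte genes ran from 1.10 to 27.8 CPM with 15C4 and from 2.23 to 221 CPM with IgG. The 11 macrophage and monocyte genes ran from 0 to 52.4 CPM and from 8.82 to 28.0 CPM, all of them at 0 in 15C4 3. The 6 dendritic cell genes reached at most 6.95 CPM and the 4 B cell genes 2.06 CPM, and the 6 pericyte genes ran from 8.74 to 42.4 CPM. Fibroblast genes, 6 in all, reached 153 CPM in 15C4 3, 94.1 CPM in IgG 1 and no more than 4.56 CPM elsewhere. Lum, a matrix proteoglycan gene, alone made up 151 CPM of the sum in 15C4 3, where Col1a1 and Dcn were each at 0.156 CPM. The highest Psmb10 values were in 15C4 1 and IgG 1, the libraries with the most Ccl5, but Psmb8 and Psmb9 were highest in IgG 2. The part of these cells in the levels was not tested.

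The regulatory particle and the chaperones that assemble it held the genes with the largest fitted differences. Its 6 ATPases, the motor of the base, were all above 0, with log2 fold changes from 0.12 to 0.38 and a median of 0.18, and 0 passed. Without IgG 2, 3 of the 6 were above 0 (median -0.011), and without 15C4 3, 4 of the 6. Psmc4 had the smallest p among them, with 237, 177 and 204 CPM in 15C4 1, 2 and 3 and 139, 159 and 207 CPM in IgG 1, 2 and 3 (0.38, SE 0.33). IgG 3 lay above 2 of the 3 treated libraries for Psmc4, so the groups overlapped. The 3 other base subunits, Psmd1, Psmd2 and Psmd4, had values from -0.14 to 0.098, and their median of -0.020 was 0.084 without IgG 3.

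Of the 8 lid genes, 5 were above 0 and 3 below (median 0.27). The median was -0.043 without 15C4 3, with 4 of 8 above 0, 0.0047 without IgG 2, and -0.091 with voom sample weights, with 3 of 8 above 0. Psmd13, a structural lid subunit on chromosome 7 (GRCm38 140881968 to 140898643), was at 55.2, 47.5 and 64.3 CPM in 15C4 1, 2 and 3 and at 28.2, 20.5 and 34.6 CPM in IgG 1, 2 and 3. All 3 treated libraries were above all 3 controls (log2 fold change 1.10, SE 0.52, unadjusted p = 0.0673 by edgeR over the whole table). Leaving out any 1 library gave 0.91 to 1.32. In the authors' deposited table, which gives IgG over 15C4, Psmd13 had a log2 fold change of -1.15 and an adjusted p of 0.0382, the 1 proteasome gene of 48 under 0.05 beside 507 of 14111 genes with an adjusted p. Its exons overlap those of Sirt3 on the opposite strand over 342 bases, 10.1% of its exon length.

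Psmd3, another lid subunit, was at 65.9, 53.2 and 36.6 CPM with 15C4 and 34.4, 23.03 and 36.5 CPM with IgG. The groups did not overlap, but 15C4 3 and IgG 3 were level (0.80, SE 0.52, unadjusted p = 0.163 by edgeR). Psmd11, also of the lid, was at 95.2, 53.9 and 87.0 CPM against 98.5, 93.0 and 158 CPM (-0.49, SE 0.43), with a near-identical counted copy, A730017L22Rik, that could share its reads. Psmd14, the deubiquitinase of the lid, ranged from 87.4 CPM in IgG 2 to 477 CPM in 15C4 3.

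The chaperones that assemble the base held both extremes of the set. Psmd10, also known as gankyrin, was at 61.9, 62.5 and 79.0 CPM in 15C4 1, 2 and 3 and at 31.5, 3.11 and 35.5 CPM in IgG 1, 2 and 3 (chromosome X, GRCm38 140948429 to 140956728). The value in IgG 2 comes from 30 counts (95% exact interval 2.10 to 4.44 CPM). The groups did not overlap, and the log2 fold change was 1.63 (SE 0.83, unadjusted p = 0.0836 by edgeR), or 1.10 without IgG 2. Psmd9 was at 17.6, 14.4 and 4.85 CPM against 25.3, 18.0 and 54.1 CPM, lower in all 3 treated libraries (-1.36, SE 0.79, unadjusted p = 0.123 by edgeR). Without IgG 3 it was -0.74. Both genes encode chaperones of base assembly and lay on opposite sides, while the third chaperone, Psmd5, was at 0.30 (SE 0.59), the median of the 3. Without 15C4 3 that median was -0.028.

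These 4 genes were all whose groups did not overlap in CPM, 4 of the 46 tested (3 higher and 1 lower with 15C4), against 9.52% of all tested genes (2.88% higher and 6.64% lower). The share of the set, counted in either direction, was near this background. After scaling by TMM factors, a choice added after the data were seen, Psme1 joined them as higher, which made 5 of 46 against 9.5%. In the authors' deposited table, adjusted p was 0.0752 for Psmd3, 0.210 for Psmd10 and 0.199 for Psmd9.

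The chaperones of the barrel were split, with Psmg1 and Psmg2, which together build the alpha ring, above 0 and Psmg3 and Psmg4, which act with them as a second pair, below. Psmg2 was at 97.4, 208 and 277 CPM in 15C4 1, 2 and 3 and at 115, 86.6 and 183 CPM in IgG 1, 2 and 3 (0.72, SE 0.51). Without 15C4 3 its log2 fold change was 0.30, and without IgG 3 it was 1.11. Psmg3 was at 21.5, 19.8 and 4.85 CPM against 22.0, 6.33 and 42.2 CPM (-0.57, SE 0.92). The groups overlapped for both. In 15C4 3, Psmg1 and Psmg2 had their highest values and Psmg3 and Psmg4 their lowest. The median of the 4 was 0.11, but -0.043 without 15C4 3 and -0.016 without IgG 2.

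Genes around the proteasome did not pass either. Of 16 listed proteasome genes outside the naming rule, such as the maturation factor Pomp and the deubiquitinase Usp14, 14 were tested, 9 above 0 and 5 below (median 0.21), with Rad23b, a ubiquitin shuttle, at 0.66 (SE 0.36) and Txnl1, a thioredoxin-like protein bound to the cap, at -0.27 (SE 0.38). Of 14 regulators of proteasome transcription, 13 were tested, 6 above and 7 below (median -0.062). Nfe2l1, the factor that restores proteasome genes after inhibition, was at 0.059 (SE 0.52), Nfyb, a subunit of the CCAAT-binding factor, at 0.51 (SE 0.45), and Bach1, a repressor at antioxidant response elements, at -0.87 (SE 0.75). The ubiquitin-activating enzyme Uba1 was at -0.42 (SE 0.44), and the 6 ubiquitin and activating enzyme genes split 3 above and 3 below (median -0.043).

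Near-identical copies limit some counts. At 95% identity over at least 50% of the transcript, 8 of the 48 genes had a copy elsewhere in the annotation. The copies of Psme2 and Psmd11 have symbols in the counts. Those of Psma4, Psma5, Psmb3, Psmb5, Psmc1 and Psmd2 are pseudogenes without such a symbol. Psmb5 is in the denominator of the ratios above, and the effect of its copy on them was not tested. Beside Psmb9 and Psmd13, exons were shared with genes on the opposite strand by Psmb7 (Nek6, 11.8% of its exon length), Psmb8 (Gm20496, 14.7%), Psmc3 (Slc39a13, 8.25%) and Psmd9 (Gm26745, 25.5%), and over 4.81% or less by Psma4, Psma5, Psmd1, Psmd3 and Psme1. On the same strand, Psmb5 shared 12.1% of its exon length with Mir686, Psmg3 9.68% with Gm26938 and Psmd1 4.14% with Gm21972. Neighbours in the genome were Psmb8 (GRCm38 chromosome 17, 34197721 to 34201454) and Psmb9 (34181987 to 34187764), 9956 bases apart, Psme1 (chromosome 14, 55578123 to 55581529) and Psme2 (55587441 to 55591113), 5911 bases apart, and Psmb5 and Psmb11 on chromosome 14, 3410 bases apart. Of these pairs, Psmb8 and Psmb9 were both lowest in 15C4 3 and both highest in IgG 2. Psme1 and Psme2 were both highest in 15C4 1, but lowest in IgG 2 and 15C4 3. Such extremes were not particular to neighbours, since Psmb10 on chromosome 8 was also lowest in 15C4 3 and highest in 15C4 1. Of all tested genes, 37.1% were lowest in 15C4 3, 18.2% highest in IgG 2 and 22.7% highest in 15C4 1.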

How the data were processed

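Per the labels' protocols, RNA of sorted endothelial cells was copied to cDNA, amplified by PCR and made into Nextera XT libraries. The authors deposited whole-number counts per gene symbol for 6 libraries. The tools named are fastp, STAR (2.5b), featureCounts and DESeq2, and the builds mm10 and mm9, per the submitters' processing notes, which give no roles. For the annotation, the strand setting and the build behind the counts, nothing is given in the sources used here. Another file holds, for each gene, the authors' log2 fold change and p-value (also adjusted), used only where named.

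All genes were tested with edgeR 4.0.16 (quasi-likelihood, R 4.3.3) after TMM and filterByExpr (minimum count 10, total 15), with treatment as the term and Benjamini-Hochberg adjustment over all tested genes at 0.05. SE is the absolute log2 fold change over the square root of F. CPM are of all counts, without TMM factors. Alternatives were other normalisations and filters, DESeq2 1.42.0, limma 3.58.1 (voom), a replicate block and leaving out each library. The script was tested on simulated data.

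Named with values in every library were the interferon-induced genes, their counterparts, other activators, the inhibitor, tissue-restricted and untested genes, in each role the smallest p per direction, and genes whose groups did not overlap. Of the lists around the proteasome, the smallest p per direction was named with Tap1, Irf1 and Nlrc5; some genes that this rule names are not reported here. Other genes named, such as Psmd11, Psmd14, Nfe2l1, H2-K1, H2-D1 and Ifng, were added after their values were seen. Genes and lists were chosen with earlier results of these data known. Coordinates and transcript lengths are from GENCODE M21 (GRCm38).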

Additional observations from a re-analysis of the deposited data

How the results depend on the processing

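The count of proteasome genes past the threshold was 0 under all 16 alternatives. The count over all genes was 0 with edgeR, and 1 with no filter on low counts and 23 with DESeq2, none of them a proteasome gene. Of 21 named genes, 10 kept their direction under every alternative, and 299 of 336 values did. With upper quartile factors, Psmb10 was -0.056, Psme3 -0.063 and Psmf1 -0.010, and with library size alone they were -0.018, -0.068 and -0.025. These scalings moved the median of all tested genes from 0.010 to -0.088 and -0.075, and that of the proteasome genes from 0.12 to 0.0045 and 0.0018. With limma-voom, Psme3 was -0.24 and Psmf1 -0.13. With voom sample weights, Psmb1 was 0.020, Psmb10 -0.057, Psmb5 -0.043, Psme3 -0.33, Psmf1 -0.28 and Psmg3 0.092. The cause was not tested.

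Leaving out 1 library at a time gave ranges that crossed 0 for Psma4 (-0.051 to 0.59), Psma7 (-0.47 to 0.037), Psmb1 (-0.32 to 0.13), Psmb5 (-0.33 to 0.61), Psmb6 (-0.21 to 0.62), Psmb8 (-0.84 to 0.12), Psmb10 (-0.44 to 0.42), Psme2 (-0.42 to 0.18), Psme3 (-0.55 to 0.34), Psmf1 (-0.53 to 0.41) and Psmg3 (-1.03 to 0.19).

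The labels do not say whether same-numbered libraries of the 2 groups belong together. Their deviations from the group means correlated at -0.036, 0.063 and 0.10, against -0.10 to 0.068 for libraries with unlike numbers. With 3 libraries per group, such correlations cannot decide whether the numbers stand for a pairing. With the replicate block, 0 genes passed, and Psmb10 was -0.16, Psme3 -0.072 and Psmf1 -0.028. The fitted biological coefficient of variation over all tested genes was 0.861, and the median SE was 0.43 for the proteasome genes against 0.78 for all tested genes. Psma8 and Psmb11 had too few counts to test.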
